A study of Homo sapiens with 3 samples.

Results

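Circular RNAs (circRNAs) of hosts annotated as non-coding were examined in 3 lung epithelial cell lines. A circRNA was included when the accession of its host transcript began with NR_, the RefSeq prefix of non-coding transcripts, or with TCONS_, the prefix of transcripts assembled from RNA sequencing. This rule took 3516 of the 92509 circRNAs in the table: 2953 with an NR_ host and 563 with a TCONS_ host, from 1053 hosts in all. Of the rest, 87582 circRNAs had a coding NM_ host and 1346 had no listed host.

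The lines were BEAS-2B, immortalised bronchial epithelial cells that the labels call normal, A549, an adenocarcinoma line labelled as EGFR wild type, and HCC827, an adenocarcinoma line labelled as EGFR mutant. All 3 were grown in the same serum medium, the labels list no treatment, and their total RNA was depleted of ribosomal RNA before sequencing. Each line was represented by 1 library, so no difference below has a replicate error or a test. Values are transcripts per a fixed total (TPM), a level corrected for length that sums to about the same in each library. TPM keeps no read depth, so the depth behind each value is unknown. In the mRNA table, KRT8, an epithelial keratin, was at 282, 1419 and 91.6 FPKM (the length-corrected unit of that table) in BEAS-2B, A549 and HCC827. Between 8891 and 8999 of the table's 20635 genes stood at exactly 1 FPKM in a line, which is read here as not listed. EPCAM, an epithelial adhesion molecule, was at 1, 4.23 and 166 across BEAS-2B, A549 and HCC827. KRT18, a further epithelial keratin, was at 1.61, 5.65 and 9.001, and was thus highest in HCC827, where KRT8 was lowest. VIM, the mesenchymal filament protein vimentin, was at 411, 173 and 1.47. FN1, a further mesenchymal marker, was at 141, 94.8 and 39.4, and thus stayed well above VIM in HCC827. PTPRC of leukocytes and SFTPC of alveolar type II cells were at 1 in every line.

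A circRNA forms when a downstream splice donor is joined back to an upstream acceptor, which leaves a closed loop without ends. Most arise from exons of protein-coding genes, and long non-coding RNAs (lncRNAs) with several exons are spliced in the same way. RMRP and RPPH1, in contrast, are the RNA parts of RNase MRP and RNase P. These short RNAs are made by RNA polymerase III, have no introns, and serve in the processing of ribosomal and transfer RNA precursors. MALAT1 is an abundant nuclear lncRNA of nuclear speckles, and GAS5 and the SNHG genes are spliced lncRNAs whose introns carry small nucleolar RNAs (snoRNAs).

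The start sites of 3 of these hosts are shown because their circRNAs were among the members with the highest levels. RefSeq gives the start of MALAT1 used here at chr11:65498995-65499094 on the + strand, of GAS5 at chr1:173868996-173869095 on the − strand and of SNHG29 (C17orf76-AS1 in the table) at chr17:16438937-16439036 on the + strand, all in GRCh38.p14. Each run holds 50 bases before the start and 50 after it, and capitals mark the TATA motif TATAAA.
MALAT1: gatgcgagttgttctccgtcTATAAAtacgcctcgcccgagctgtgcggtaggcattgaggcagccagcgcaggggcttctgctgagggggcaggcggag
GAS5: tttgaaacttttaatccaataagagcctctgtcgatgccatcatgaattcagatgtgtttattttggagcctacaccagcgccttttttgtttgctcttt
SNHG29: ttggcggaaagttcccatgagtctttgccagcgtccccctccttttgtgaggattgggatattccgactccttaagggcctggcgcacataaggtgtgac
TATAAA began 30 bases before this MALAT1 start and was not in the 50 bases before the GAS5 or SNHG29 start. Among 35116 RefSeq promoters, 2.63% held TATAAA in the 50 bases before the start and 1.04% held its reverse complement TTTATA. A further RefSeq start of MALAT1 held neither. The match is a description of these letters only.

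The NR_ hosts were mostly not lncRNA genes. In the RefSeq table, 2932 of 2953 NR_ circRNAs could be matched to a gene, and 1405 of them belonged to a gene now annotated as protein-coding, through one of its non-coding transcripts. After sorting by name and gene type, 1384 of the 3516 members had a non-coding transcript of a coding gene as host, 673 a pseudogene, 563 an assembled transcript, 250 a readthrough transcript that joins neighbouring genes and 241 a lncRNA outside the named groups. Smaller groups were antisense or intronic transcripts with 170 members, snoRNA host genes with 100, small structural RNAs with 76 and miRNA host genes with 35. MALAT1 itself was host to 3, and 21 had a host that could not be matched. About as many hosts gave 1 member (490 of 1053) as several, and 181 hosts had 5 or more.

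Members were listed above 0 in BEAS-2B and A549 about equally often, and rarely in HCC827. The counts above 0 were 1807, 1888 and 209 across BEAS-2B, A549 and HCC827, or 51.4%, 53.7% and 5.94% of all members. Over all circRNAs of the table the same shares were 46.2%, 47.5% and 5.34%. Above 5 TPM, the level used below for ratios between lines unless stated otherwise, were 820, 856 and 154 members. These were 23.3%, 24.3% and 4.38% of members, beside 23.4%, 22.7% and 4.65% of all circRNAs. A total of 1416 members (40.3%) were at 0 in all 3 lines, beside 45.9% of all circRNAs. The HCC827 library stood apart in the whole table in the same way.

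The values that were listed were higher in HCC827. The median over members above 0 was 4.08, 4.0 and 41.8 TPM across BEAS-2B, A549 and HCC827, beside 5.17, 4.51 and 63.4 over all circRNAs. Members nonetheless summed to similar totals of 56242, 67564 and 67365 TPM, or 5.63%, 6.75% and 6.72% of each library. Exact repeats of a value within a line were also commoner in HCC827: 50 of 154 members above 5 TPM shared their HCC827 value with another circRNA, beside 30 of 820 in BEAS-2B and 45 of 856 in A549. For all circRNAs above 5 TPM the repeated share was 29.3% in HCC827, 3.96% in BEAS-2B and 3.73% in A549. Whether fewer reads lie behind the HCC827 values was not tested.

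Detection differed among host classes. In BEAS-2B, 35.0% of snoRNA host gene members and 32.9% of those of coding genes were above 5 TPM, against 12.6% of pseudogene members and 10.8% of those of other lncRNAs. In A549 these shares were 37.0%, 33.2%, 13.8% and 12.4%. In HCC827 the same 4 classes were at 5.00%, 5.49%, 2.97% and 1.66%. Small structural RNA hosts had 76 members, of which 43 were at 0 in all lines, yet the class held 1.20%, 1.68% and 1.20% of all circRNA TPM. RMRP and RPPH1 held most of that level, whereas the median listed member of the class was at 1.72 TPM in BEAS-2B, below the 4.08 of all members.

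**Figure D1:**
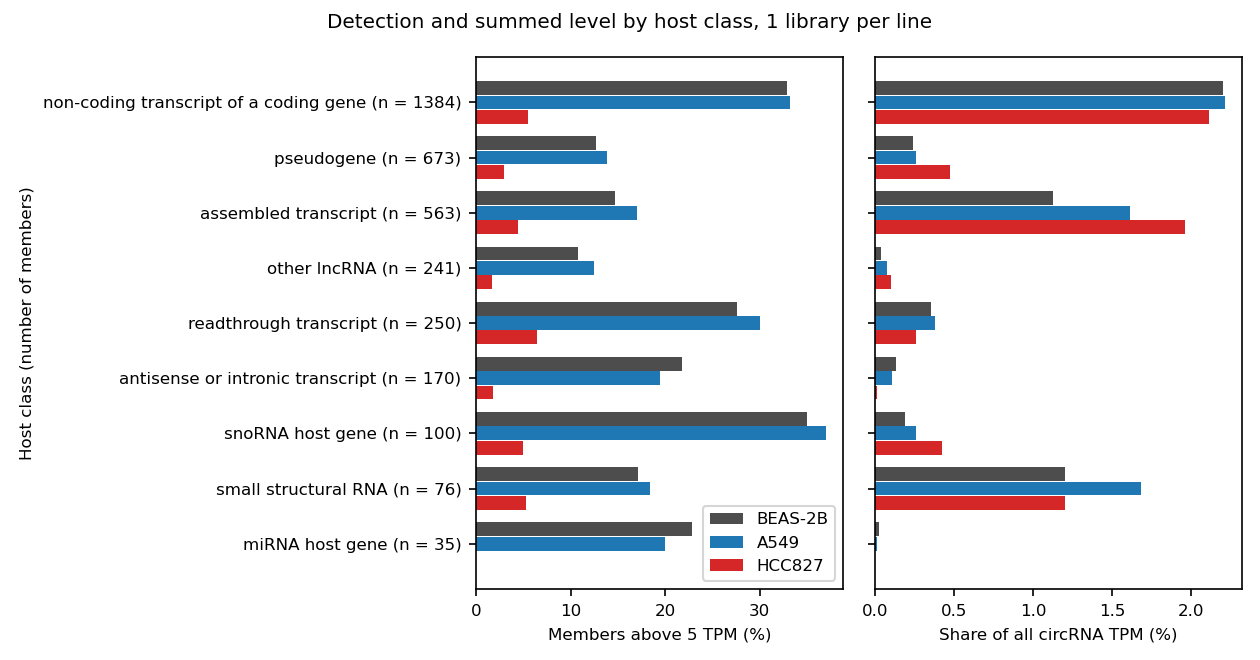
Percentage of members above 5 TPM (left) and percentage of all circRNA TPM (right) for 9 host classes, with bars for BEAS-2B, A549 and HCC827 (1 library each, no error bars) and both axes from 0. HCC827 has the shortest detection bar in every class shown, while small structural RNA hosts hold between 1.20% and 1.68% of the TPM from 76 members.

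Levels were concentrated at 3 loci. RMRP, RPPH1 and the MALAT1 region together made up 38.8%, 46.0% and 43.4% of the members' TPM across BEAS-2B, A549 and HCC827. The 10 highest members of each line held 43.8%, 49.1% and 52.3%. These were also high among all 92509 circRNAs. In BEAS-2B, A549 and HCC827 respectively, hsa_circ_0001853 of RMRP ranked 4, 3 and 5, and hsa_circ_0000325 of the assembled transcript TCONS_l2_00004575 ranked 5, 6 and 2.

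The RMRP circRNA, hsa_circ_0001853, lies at chr9:35657751-35658017 (hg19, + strand in the table) and spans 267 bases. It stood at 6657, 12519 and 6288 TPM across BEAS-2B, A549 and HCC827. A549 was thus 1.88 times BEAS-2B, and HCC827 was 0.945 times BEAS-2B and 0.502 times A549. After the scaling described below, HCC827 was 0.335 times BEAS-2B and 0.161 times A549. The other RMRP member was at 0 in all 3 lines.

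RPPH1 had 15 members within chr14:20811282-20811559, and 4 of them were above 0. They changed order between the lines. The circRNA hsa_circ_0000515 was highest in BEAS-2B at 2074 TPM, with 432 in A549 and 1059.9 in HCC827. Its neighbour hsa_circ_0000520 stood at 1992, 415 and 3071 TPM. A549 was 0.208 times BEAS-2B for each of this pair. The other two went the opposite way in A549: hsa_circ_0000512 was at 547, 1708 and 0 TPM across BEAS-2B, A549 and HCC827, and hsa_circ_0000518 was at 419, 1487 and 1635. Here A549 was 3.12 and 3.55 times BEAS-2B. Summed over the host without scaling, RPPH1 stood at 5032, 4042 and 5766 TPM, so these totals were closer together than its members. The scaling described below would lower the HCC827 total relative to the other lines. The A549 to BEAS-2B log2 ratios of the 4 members had an SD of 2.31, beside a median within-host SD of 0.35 over the 64 hosts with at least 3 members above 5 TPM in both lines. Neighbours among the 4 overlap along the gene.

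The MALAT1 region on chromosome 11 held 7 members on the + strand, 3 listed under MALAT1 and 4 under assembled transcripts. The member hsa_circ_0000325 (chr11:65266845-65267149) stood at 6651, 8378 and 10512 TPM across BEAS-2B, A549 and HCC827. The MALAT1 member hsa_circ_0004287 (chr11:65269791-65272066) stood at 954, 1135 and 1698 TPM. It begins 2641 bases after hsa_circ_0000325 ends. The member hsa_circ_0005915 (chr11:65271199-65272490) stood at 863, 1059 and 1226 TPM, and hsa_circ_0000326 (chr11:65272490-65272586), which starts at its end coordinate, at 1678, 3969 and 3726. All 4 were lowest in BEAS-2B, with A549 between 1.19 and 2.37 times and HCC827 between 1.42 and 2.22 times BEAS-2B. After scaling, A549 remained above BEAS-2B for all 4, by 1.31 to 2.61 times, while HCC827 was below it, at 0.503 to 0.787 times. Of the remaining 3, hsa_circ_0002540 had 1.60 TPM in A549 and the others were at 0 throughout.

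**Figure D2:**
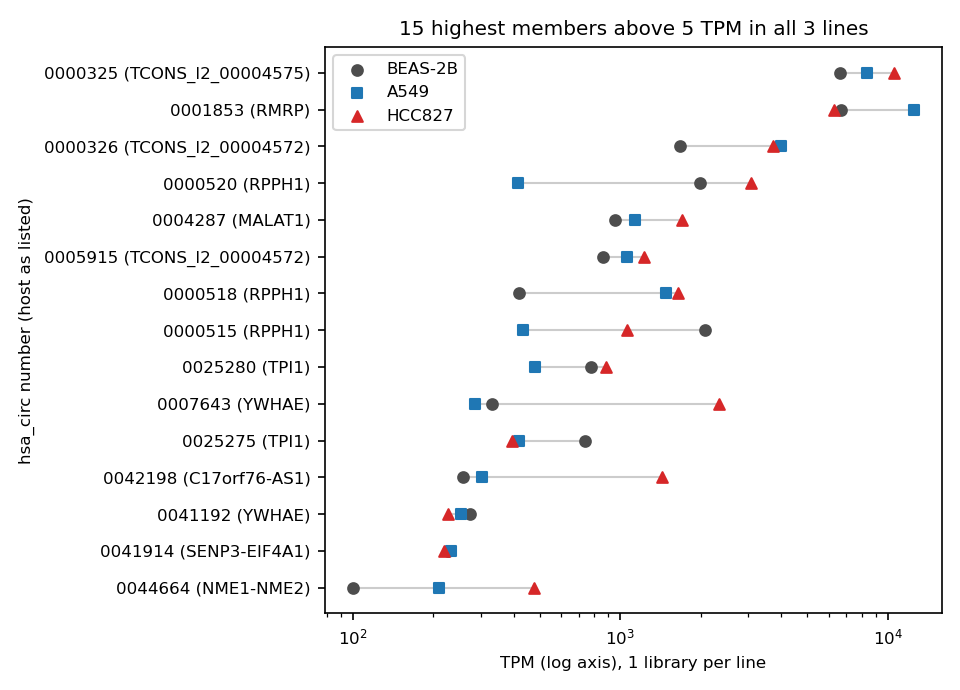
TPM on a log axis of the 15 members with the highest geometric mean among those above 5 TPM in all 3 lines, with 1 point per line (1 library each, no error bars) and a grey line over the range. RMRP and members hsa_circ_0000325 and hsa_circ_0000326 of the MALAT1 region lie at the top, and RPPH1 members 0000515 and 0000520 have A549 as the lowest point.

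The other structural RNA hosts were snoRNAs, many of which guide the modification of ribosomal RNA. The clustered, imprinted families SNORD113 to SNORD116, mostly orphan snoRNAs without a known ribosomal target, had 50 members, and the highest value among them was 0.999 TPM, in A549. Another 9 members had single snoRNAs carried by introns of other genes, such as SNORA12 at 98.5 TPM in BEAS-2B and 59.4 in A549, and SNORD24 at 58.7 and 36.0. Of these 9, 8 were above 5 TPM in BEAS-2B and 9 in A549, and all were at 0 in HCC827. In the whole table, 88.0% of the circRNAs that passed this level in BEAS-2B and A549 alike were at 0 in HCC827. The zeros of these few members are thus close to what the table shows in general. The SNORD44 member (chr1:173835052-173835312) lies inside the span of GAS5 and stood at 32.9, 37.7 and 0 TPM.

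The snoRNA host genes gave members in all 3 lines. GAS5, the growth arrest-specific transcript, had 26 members, of which 7 were above 5 TPM in some line. Its member hsa_circ_0015301 (chr1:173834366-173835032) was listed in HCC827 alone, at 2405 TPM. The longer hsa_circ_0015299 (chr1:173833394-173837125) was listed in every line, at 100.5, 121 and 316 TPM. In contrast, hsa_circ_0015292 was at 109 and 173 TPM and at 0 in HCC827. HCC827 thus had 2 GAS5 members above 0, and 1 of them was at 0 in the other lines. SNHG29 member hsa_circ_0042198 (chr17:16342841-16343017) was at 258, 304 and 1427 TPM, whereas hsa_circ_0042200 of the same host was at 101.5, 132 and 76.8. SNHG1 had 24 members, 8 of them above 5 TPM in BEAS-2B and 8 in A549, up to 219 TPM, and every one was at 0 in HCC827. Of the 34 snoRNA host gene members that passed this level in BEAS-2B and A549 alike, 31 were at 0 in HCC827. That share of 91.2% lay near the 88.0% of all circRNAs chosen in the same way. SNHG5 member hsa_circ_0077254 stood at 64.2, 242 and 0 TPM.

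A different member was also highest in HCC827 for DHX9, a gene of an RNA helicase with 32 members of a non-coding transcript. At the left end of their extent, hsa_circ_0015548 stood at 411, 456 and 0 TPM in the order of lines above. At the right end, hsa_circ_0015579 (chr1:182853747-182853948) was at 0, 0 and 1177 TPM, while hsa_circ_0015578, which contains that interval, was at 296, 255 and 0. Summed over its members, DHX9 stood at 1068, 1093 and 1239 TPM, and DHX9 mRNA at 106, 105 and 61.7 FPKM. The sums of the lines were thus close without scaling, although only hsa_circ_0015577 was above 5 TPM in all of them, at 67.6, 79.4 and 61.3. The scaling described below divides HCC827 by 2.07 and BEAS-2B by 0.734, which would set the HCC827 sum well below that of BEAS-2B.

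**Figure D3:**
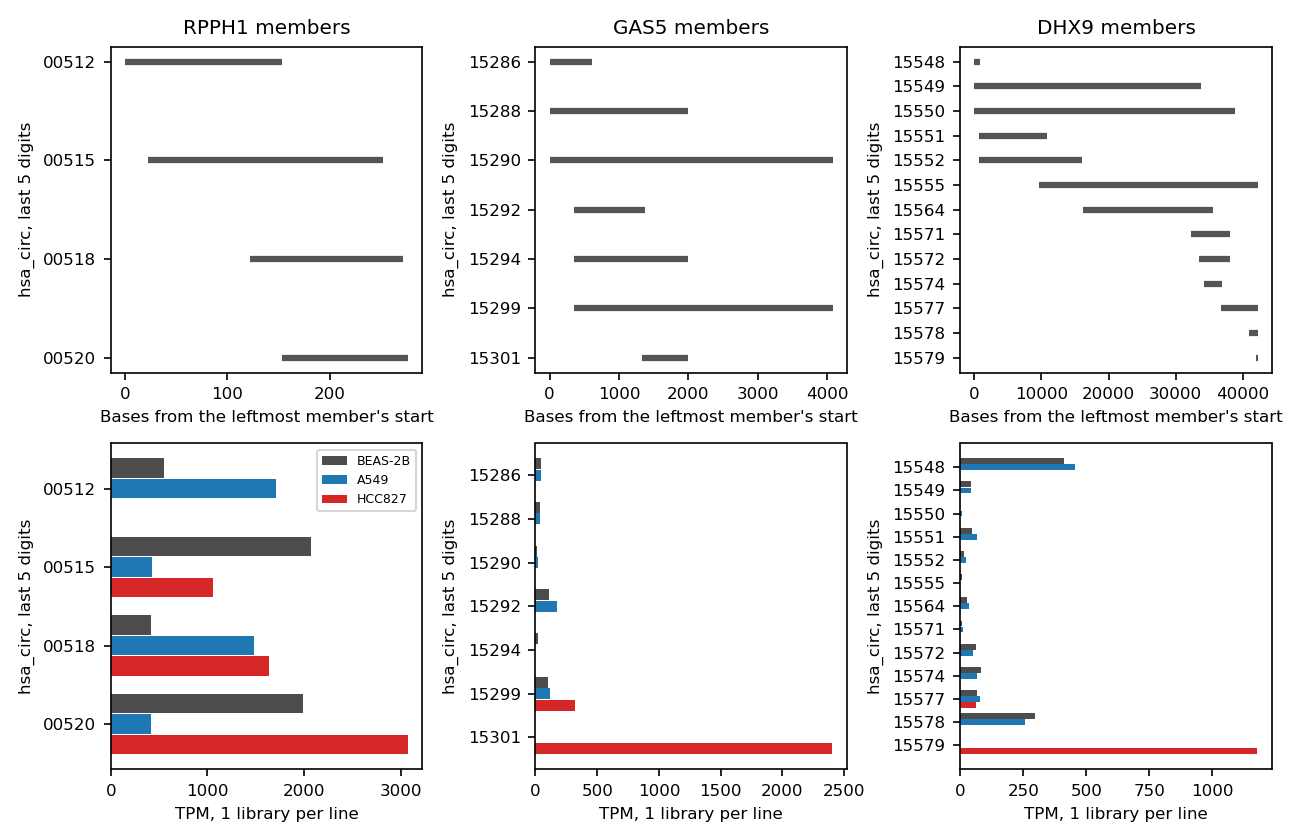
Extent (top, bases from the start of the leftmost member) and TPM (bottom, bars from 0) of the RPPH1, GAS5 and DHX9 members above 5 TPM in at least 1 line, with 1 library per line and no error bars. For GAS5 and DHX9 the longest HCC827 bar (2405 and 1177 TPM) belongs to a member at 0 in the other lines.

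Such absences were general. A set of 682 members was above 5 TPM in BEAS-2B and also in A549. Of these, 605 were at 0 in HCC827 (88.7%), beside 88.0% of all circRNAs chosen in the same way. For 141 of the 605, another member of the same host was above 5 TPM in HCC827. The same share was not taken over all circRNAs, so this count has no value to be read beside. High members were absent too: of 56 above 100 TPM in both lines, 37 were at 0 in HCC827, beside 793 of 1115 circRNAs of the whole table. Among these were hsa_circ_0073818 of HINT1, a histidine triad hydrolase, at 1873 and 1707 TPM, hsa_circ_0010401 of CAPZB, an actin capping subunit, at 1092 and 588, hsa_circ_0026787 of SARNP at 668 and 387, and RPPH1 hsa_circ_0000512. The mRNAs of HINT1, CAPZB and SARNP were lowest in HCC827 but still present there. Across BEAS-2B, A549 and HCC827, HINT1 mRNA stood at 97.8, 69.7 and 35.0 FPKM. CAPZB mRNA stood at 86.1, 51.6 and 34.7 FPKM and SARNP mRNA at 96.0, 53.7 and 43.2. The reverse was seen for 27 of the 154 members above 5 TPM in HCC827, which were at 0 in BEAS-2B and A549 (17.5%, beside 23.2% of all circRNAs). Of those named, the highest was GAS5 hsa_circ_0015301, then hsa_circ_0054515 of PPP1R21 at 1796 TPM and DHX9 hsa_circ_0015579. Also high in HCC827 were hsa_circ_0066994 of KPNA1, an importin, at 0, 2.0 and 1662 TPM, and hsa_circ_0047954 of LINC02582 at 0, 19.5 and 947.

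In all 3 lines 77 members from 61 hosts were above 5 TPM (2.19% of members, beside 2.15% of all circRNAs), and 44 of them belonged to coding genes, 10 to readthrough transcripts, 7 to assembled transcripts, 5 to pseudogenes, 4 to RMRP and RPPH1, 3 to snoRNA host genes, 3 to antisense transcripts and 1 to MALAT1. Just inside this limit lay hsa_circ_0041925 of SENP3-EIF4A1 at 8.25, 5.21 and 248 TPM. Just outside lay hsa_circ_0044756 of TCONS_00025146, at 4.72, 8.32 and 13 TPM. Members with similar TPM in all lines were hsa_circ_0041914 of SENP3-EIF4A1 at 226, 232 and 218 TPM and hsa_circ_0041192 of YWHAE, a 14-3-3 adaptor protein, at 273, 253 and 227, though after scaling HCC827 was at 0.342 and 0.294 times BEAS-2B for these. A shorter YWHAE circRNA, hsa_circ_0007643, was at 333, 287 and 2338 TPM, with YWHAE mRNA at 170, 159 and 181 FPKM. TPI1, the glycolytic triosephosphate isomerase, gave hsa_circ_0025280 at 776, 481 and 886 TPM and hsa_circ_0025275 at 736, 417 and 394.

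A549 and BEAS-2B were similar in most members. Over these 682 members the median ratio of A549 to BEAS-2B was 0.986 (log2 −0.02), beside 0.901 (−0.15) over 17133 circRNAs. Within 2-fold lay 531 members (77.9%, beside 77.4%). More than 5-fold higher in A549 were 12 members (1.76%), beside 1.03% of all circRNAs, and 1 was more than 5-fold lower (0.147%), beside 0.934%. With a scaling by the median of ratios the counts were 14 and 1, and the members' median moved to 0.12. The count above 5-fold was 4 when 10 TPM was required in both lines.

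Among those 12 were members of genes whose mRNA was also higher in A549. TESC, the calcium-binding protein tescalcin, gave hsa_circ_0028614 at 6.58 TPM in BEAS-2B and 646 in A549, a ratio of 98.2, with mRNA at 1 and 46.2 FPKM. CLU, the secreted chaperone clusterin, gave 3 members with 5.66 and 174, 6.32 and 233, and 11.7 and 526 TPM in the 2 lines, ratios of 30.7, 36.8 and 45.1, with mRNA at 18.4 and 516 FPKM. All 4 circRNAs were at 0 in HCC827, where TESC mRNA was at 1 and CLU mRNA at 2.28 FPKM. The fifth of the largest ratios, 13.4, belonged to hsa_circ_0059691 of TCONS_l2_00016753, at 5.93 and 79.2 TPM. The remaining 7 included hsa_circ_0059202 of NOP56, a snoRNP core protein, at 11.3 and 97.2 TPM, hsa_circ_0036592 of the pseudogene SCAND2 at 7.79 and 72.0, and hsa_circ_0077256 of SNHG5 at 5.79 and 35.3. The lowest ratio, 0.168, was that of hsa_circ_0026915 of RNF41, a ubiquitin ligase, at 39.0 and 6.56 TPM, with mRNA at 8.54 and 4.08 FPKM. It was followed by the RPPH1 pair above, by hsa_circ_0061965 of PFKL, the liver phosphofructokinase, at 26.7 and 5.59 TPM, and by hsa_circ_0049506 of ZNF625-ZNF20 at 181 and 43.3. PFKL mRNA was at 25 and 8.27 FPKM.

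**Figure D4:**
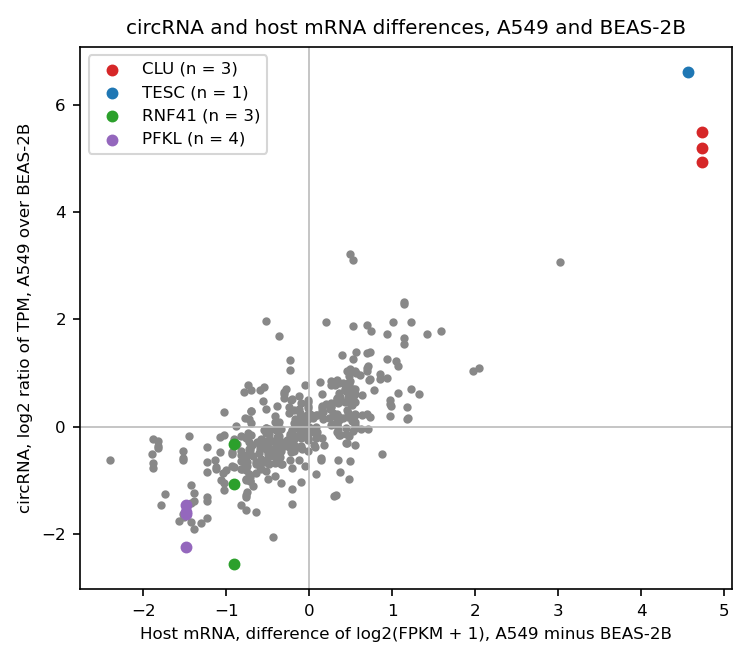
Log2 ratio of circRNA TPM (A549 over BEAS-2B, vertical) against the difference of log2(FPKM + 1) of the host mRNA (horizontal) for 414 members of 215 hosts, 1 library per line. TESC and the 3 CLU members lie at the upper right with ratios of 98.2 and of 30.7 to 45.1, and the PFKL members at the lower left.

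Across the 414 members above 5 TPM in both lines whose host mRNA could be matched and was above 1 FPKM in either line, Spearman's rho between the circRNA and mRNA differences was 0.72, and 325 had the same sign. Members of 1 host share the mRNA value and all points share the same libraries, so this is a description. For HCC827 and BEAS-2B, with 50 members, rho was 0.47. The median mRNA difference of these hosts was −0.06 and the median circRNA log2 ratio, without scaling, 1.64.

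The SD of the log2 ratio of A549 to BEAS-2B was 0.97 over the 682 members, a value that includes the TESC and CLU members, and its median within the 64 hosts with at least 3 was 0.35. These SDs rest on few members each and their difference was not tested. Besides RPPH1, the widest hosts were NME1-NME2 with an SD of 1.41 (from −0.65 to 3.22), NOP56 with 1.39, SDHAP2 with 1.19, RNF41 with 1.14 and GPATCH8 with 1.12. SENP3-EIF4A1, with 12 members above 5 TPM in both lines, ranged from −0.66 to 1.02. DHX9, with 10 such members, ranged from −0.25 to 0.49. PVT1, a lncRNA next to MYC, had 26 members, 5 of them above 5 TPM in BEAS-2B and 8 in A549. The 4 above 5 TPM in both lines were all higher in A549, from 0.75 to 1.42. The highest PVT1 circRNA, hsa_circ_0085553, stood at 21.2, 51.6 and 0 TPM. In 27 of the 64 hosts the members had both signs.

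Ratios that involve HCC827 were shifted for the whole table. Over 81 members above 5 TPM in HCC827 and BEAS-2B the median log2 ratio was 1.55, beside 1.58 over 2244 circRNAs. More than 5-fold higher in HCC827 were 24 members (29.6%), beside 33.4% of all circRNAs, and none was more than 5-fold lower, beside 0.668%. Against A549 the same values over 84 members were a median of 1.64, beside 1.78, with 28 members (33.3%) more than 5-fold higher, beside 37.2%, and none lower, beside 0.778%. After scaling by the median of ratios, 7 of 81 members were more than 5-fold higher than in BEAS-2B and 6 lower, beside 11.4% and 6.28% of all circRNAs. Against A549 the scaled counts of 84 were 9 and 5, beside 12% and 6.64%. The 3 comparisons share their libraries in pairs.

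**Figure D5:**
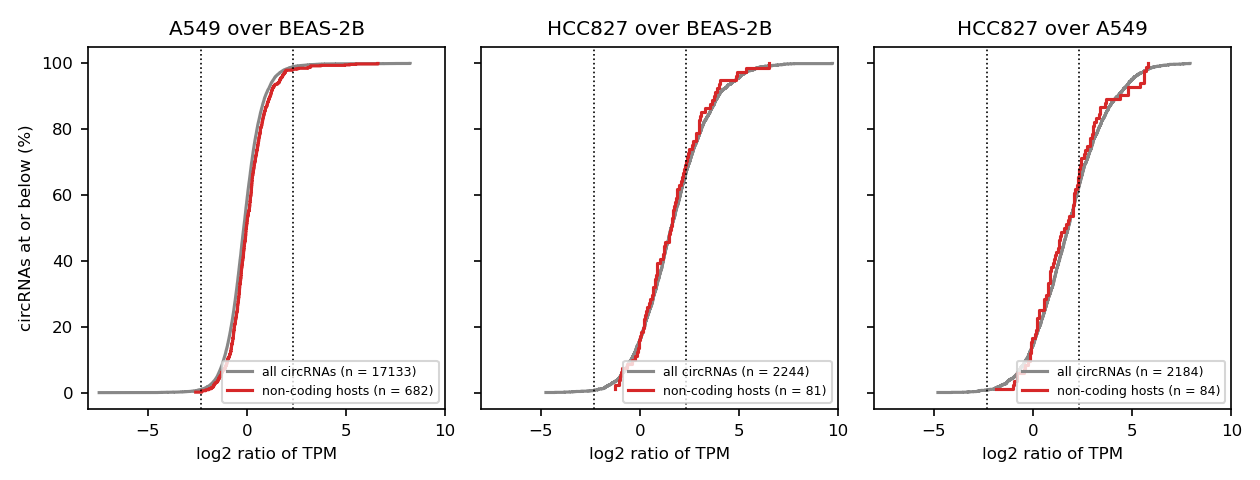
Cumulative percentage of circRNAs by log2 ratio of TPM for each pair of lines, for members (red) and all circRNAs (grey) above 5 TPM in both, with dotted lines at 5-fold. The 2 curves run close together in each panel, and both are shifted to the right where HCC827 is compared (members' medians 1.55 and 1.64, beside −0.02 for A549 over BEAS-2B).

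Among members above 5 TPM in both lines, the one furthest above BEAS-2B in HCC827, at 90.0 times, was hsa_circ_0027551 of CNOT2, a subunit of the CCR4-NOT deadenylase, with 12.5, 2.63 and 1123 TPM. CNOT2 mRNA was at 20.8, 13.3 and 32.5 FPKM. Next were hsa_circ_0080953 of DMTF1, a Myb-like transcription factor, at 12.9, 10.9 and 525 TPM, with mRNA at 16.2, 8.19 and 15.3 FPKM, and hsa_circ_0041925 of SENP3-EIF4A1. The pseudogene member hsa_circ_0004457 of LOC440434 (NPEPPSP1) stood at 59.0, 40.3 and 1723 TPM, a ratio of 29.2, and hsa_circ_0052419 of ACP1, a small tyrosine phosphatase, at 29.2, 96.2 and 481. All 5 stayed more than 5-fold above BEAS-2B after scaling, at 31.9, 14.4, 10.7, 10.3 and 5.83 in that order. Against A549, again above 5 TPM in both, the largest ratio, 55.9, was that of hsa_circ_0080412 of the pseudogene STAG3L4, at 2.55, 29.7 and 1662 TPM. It was followed by hsa_circ_0008168 of ZWILCH, a kinetochore protein, at 51.3, and by LINC02582 at 48.5.

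At the other end, hsa_circ_0024993 of ERC1 had the smallest ratio of HCC827 to BEAS-2B, 0.415, at 12.9, 9.25 and 5.35 TPM. The next was hsa_circ_0006940 of TCONS_00022740 at 0.417, with 46.5, 71.3 and 19.4 TPM, which also had the smallest ratio to A549, 0.272. HNRNPDL (HNRPDL in the table), an RNA-binding protein, gave hsa_circ_0070224 at 254, 237 and 121 TPM, a ratio of 0.477. SRSF3, a splicing factor, gave hsa_circ_0076192 at 74.2, 52.0 and 37.7 TPM. After scaling these 4 stood between 0.147 and 0.180 times BEAS-2B, so their side of the 5-fold limit depended on the scaling.

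Some members were listed in 1 line only of the pair BEAS-2B and A549. At 0 in BEAS-2B, hsa_circ_0047953 of LINC02864 had 212 TPM in A549, hsa_circ_0028616 of TESC 165 and hsa_circ_0053381 of GALNT14, a mucin-type glycosyltransferase, 131.5. GALNT14 mRNA was at 1 FPKM in BEAS-2B and 6.53 in A549. At 0 in A549, hsa_circ_0049504 of the pseudogene ZNF788 had 55.7 TPM in BEAS-2B, and hsa_circ_0012624 of YIPF1 36.0.

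Of the 26 antisense members among the 682 above 5 TPM in BEAS-2B and also in A549, 88.5% were listed at 0 in HCC827, close to the 88.0% of all circRNAs. The antisense class was led by hsa_circ_0001416 of LOC255130 (IGFBP7-AS1) at 441, 141 and 0 TPM and hsa_circ_0018060 of LOC387647 (SVIL-AS1) at 120, 92.0 and 0. Of its 170 members, 37, 33 and 3 were above 5 TPM. The miRNA host genes had 8 and 7 of 35 members above 5 TPM in BEAS-2B and A549 and none in HCC827. DLEU2, which carries miR-15a and miR-16-1, gave hsa_circ_0030281 at 152, 64.6 and 0 TPM, and MIR17HG, host of the miR-17-92 cluster, hsa_circ_0030556 at 15.1, 28.8 and 0.

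Several hosts with many members gave almost nothing. ADAM6, a pseudogene in the immunoglobulin heavy chain locus, had 93 members, the most of any host, and KIAA0125, a lncRNA in the same locus, had 31. Of these 124 members, 29 were above 0 in some line and their highest value was 0.126 TPM. PTPRC mRNA was at 1 FPKM in every line, as given above, and a link between this and the low circRNA values was not tested.

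Members spanned a median of 6051 genomic bases from the start to the end coordinate, beside 8283 for all circRNAs. For those above 5 TPM the medians were 4674, 4830 and 4469 across BEAS-2B, A549 and HCC827, beside 8005, 7953 and 7316. The structural RNA members above 5 TPM were far shorter, at 230, 246 and 191 bases. Where the reference used gave the host's strand, 53 of 1845 members lay on the opposite strand, and 4 of these were above 5 TPM in a line. RMRP and RPPH1 had no entry there, so the + strand listed for hsa_circ_0001853 was not compared with that of its host.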

How the data were processed

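RNA sequencing of 3 cell lines, 1 library each, was taken up from the deposited tables. The circRNA table holds TPM and the mRNA table FPKM, both computed by the authors. The column HCC was matched to HCC827 by its label. The submitters' processing notes name FastQC 0.11.7, kallisto, sleuth and hg19. The study's methods instead describe STAR, Cufflinks and GENCODE and name the mouse build mm10, although the cells are human. The circRNA coordinates are taken as hg19 from the notes, and which program gave the circRNA TPM is not given in the sources used here. The labels name Trizol for RNA extraction and ribosomal RNA depletion. Read depth is unknown, and TPM in a library depend on each other.

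Ratios were taken without a pseudocount over circRNAs above 5 TPM in both lines and called past 5-fold. mRNA differences used log2(FPKM + 1). Scaling divided each library by its median of ratios over circRNAs above 5 TPM in all lines (0.734, 0.665 and 2.07 for BEAS-2B, A549 and HCC827). The authors' fold-change columns and 11 other tables were not used. Named members are the 15 highest in all lines, the 10 highest per line, 5 per end of each ratio, 5 per line listed at 0 in another, hosts with 5 or more members, and 4 per class. Not all are printed, and 26 members were counted but not named. Members set beside these within a host, and the further members above 5-fold, were chosen after their values were seen. Members and lists were chosen with earlier results of these data known. Gene types came from RefSeq GRCh38.p14 by accession, symbol or older symbol. Python 3.11.15, pandas 2.3.3 and scipy 1.17.1 were used.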

Additional observations from a re-analysis of the deposited data

Results flagged for a closer look

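In 3 members above 5 TPM in all lines, the 2 cancer lines lay on opposite sides of BEAS-2B by more than 2-fold, and the difference was not tested because each line has 1 library. The RBM39 circRNA hsa_circ_0060138 stood at 26.5, 10.7 and 223 TPM in BEAS-2B, A549 and HCC827, with the last 20.8 times A549. The PFKL circRNA hsa_circ_0061955 stood at 51.7, 18.7 and 172 TPM, 9.15 times A549. The TNPO3 circRNA hsa_circ_0082271 stood at 39.9, 19.5 and 250.3 TPM, 12.9 times A549. After scaling by the median of ratios HCC827 was 2.98, 1.18 and 2.22 times BEAS-2B, and A549 was 0.445, 0.400 and 0.538 times BEAS-2B. RBM39 alone of the 3 then still had both lines more than 2-fold from BEAS-2B on opposite sides.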

How the results depend on the processing

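No paired analysis was possible because each line has 1 library and the shared replicate number pairs nothing. Of 88 alternative values, 59 stayed within the limits used (1.5 times for counts and for median ratios). The 77 members above 5 TPM in all lines became 1060 with 5 TPM in at least 1 line and 682 without HCC827. For A549 over BEAS-2B, the 12 members more than 5-fold higher became 33 at 1 TPM, 4 at 10 TPM, 0 with 5 TPM in all lines, 88 with 1 TPM added over members above 5 TPM in at least 1 line of the pair, and 7 with 1 member per host, and the 1 lower became 16, 0, 0, 49 and 0 in that order and 0 with host sums. For HCC827 over BEAS-2B, the 24 higher became 45 at 1 TPM, 86 with 1 TPM added and 7 after scaling, the 0 lower became 739 with 1 TPM added, 6 after scaling and 2 with host sums, and the median log2 ratio of 1.55 became −3.64 with 1 TPM added and 0.055 after scaling. For HCC827 over A549, the 28 higher became 47, 86 and 9, the 0 lower became 772 with 1 TPM added and 5 after scaling, and the median of 1.64 became −3.75 with 1 TPM added, −0.0019 after scaling and 0.97 with host sums. Adding 1 TPM brings in members at 0 in HCC827, which were left out otherwise. Scaling centres the libraries on circRNAs above 5 TPM in all lines, so a scaled median of members only places them beside that set. Host sums and the setting without HCC827 were chosen after seeing the data. Depth limits could not be given from TPM.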
